A study of Mus musculus with 6 samples.

Results

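Excitatory synapses of the cortex hold a postsynaptic density, a protein mesh under the membrane that fixes glutamate receptors opposite the sites of transmitter release. Its scaffold is built in layers: the membrane-associated guanylate kinases (MAGUKs) bind receptors, the SAPAP proteins link MAGUKs to Shank proteins, and Homer proteins join Shanks to metabotropic glutamate receptors. Adhesion proteins, among them presynaptic neurexins and the postsynaptic neuroligins and LRRTMs, hold both sides of the synapse together, and many of them end in a tail that binds the MAGUK layer. In the rodent cortex, the first weeks after birth are the main period of synapse formation.

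The transcripts of 31 genes of this machinery were taken from 6 RNA-seq libraries by gene symbol, chosen for their function as postsynaptic scaffolds, kinases and trans-synaptic adhesion proteins. All 31 were found among 35857 gene rows. The tested libraries came from the cerebral cortex of 3 C57BL/6 mice labelled Qk-/- (Qk knockout) at postnatal day 7, and the other 3 came from C57BL/6 mice of the same age labelled wild type (control). Qk encodes quaking, an RNA-binding protein found mainly in glial cells and neural progenitors, which acts on the splicing and stability of its target transcripts. The series title asks how quaking bears on the switch of neural stem cells from neurons to glia. Neither the deleted exons nor the cells that carried the deletion are given in the sources used here. Levels are in TPM, an abundance scaled for transcript length and set to an equal total per library, so that levels of different genes can be set side by side.

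Qk was at 14.6, 15.2 and 15.4 TPM in the knockout libraries and at 36.5, 43.2 and 41.3 TPM in the control libraries, or 37.3% of the control mean. The log2 change was -1.36 (SE 0.095, limma adjusted p = 0.000855). Of 14994 genes that averaged 1 TPM or more, 58 passed an adjusted p of 0.05. The knockout libraries differed among themselves by base composition: across 9328 genes of at least 10 TPM, the deviation of a gene from its knockout mean correlated with transcript GC content at r = 0.42 in replicate 2 and r = -0.39 in replicate 3 (Pearson, across genes of the same libraries, which are not independent), and results are therefore also given without replicate 2. RNA of the whole cortex was sequenced, so fewer cells of a type and less RNA per cell cannot be told apart.

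No change was called for any of the 31 synaptic genes in the Qk knockout cortex, though small changes within the intervals given below remain possible. By limma with Benjamini-Hochberg adjustment over all 14994 genes, 0 of 31 passed the threshold, against 0.387% of all tested genes (0.1% higher and 0.287% lower in the knockout). The smallest adjusted p was 0.61 (Camk2a), and 0 of 31 had an unadjusted p under 0.05, against 8.72% of all tested genes (3.42% higher and 5.30% lower). Mean levels in the knockout were 87.0% to 109.3% of those in the control. The 95% interval of the log2 change, for each gene alone, lay inside -0.5 to 0.5 for 30 genes and inside -1 to 1 for all 31, so for the 30 genes above 10 TPM a doubling or halving lay outside the interval. The gene with the widest interval was Il1rapl1 (-0.55 to 0.37), which was also the least abundant. All log2 changes compare log2(TPM + 1) in the knockout with the control, so that positive values are higher in the knockout and the change of a gene as low as Il1rapl1 is understated.

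**Figure D1:**
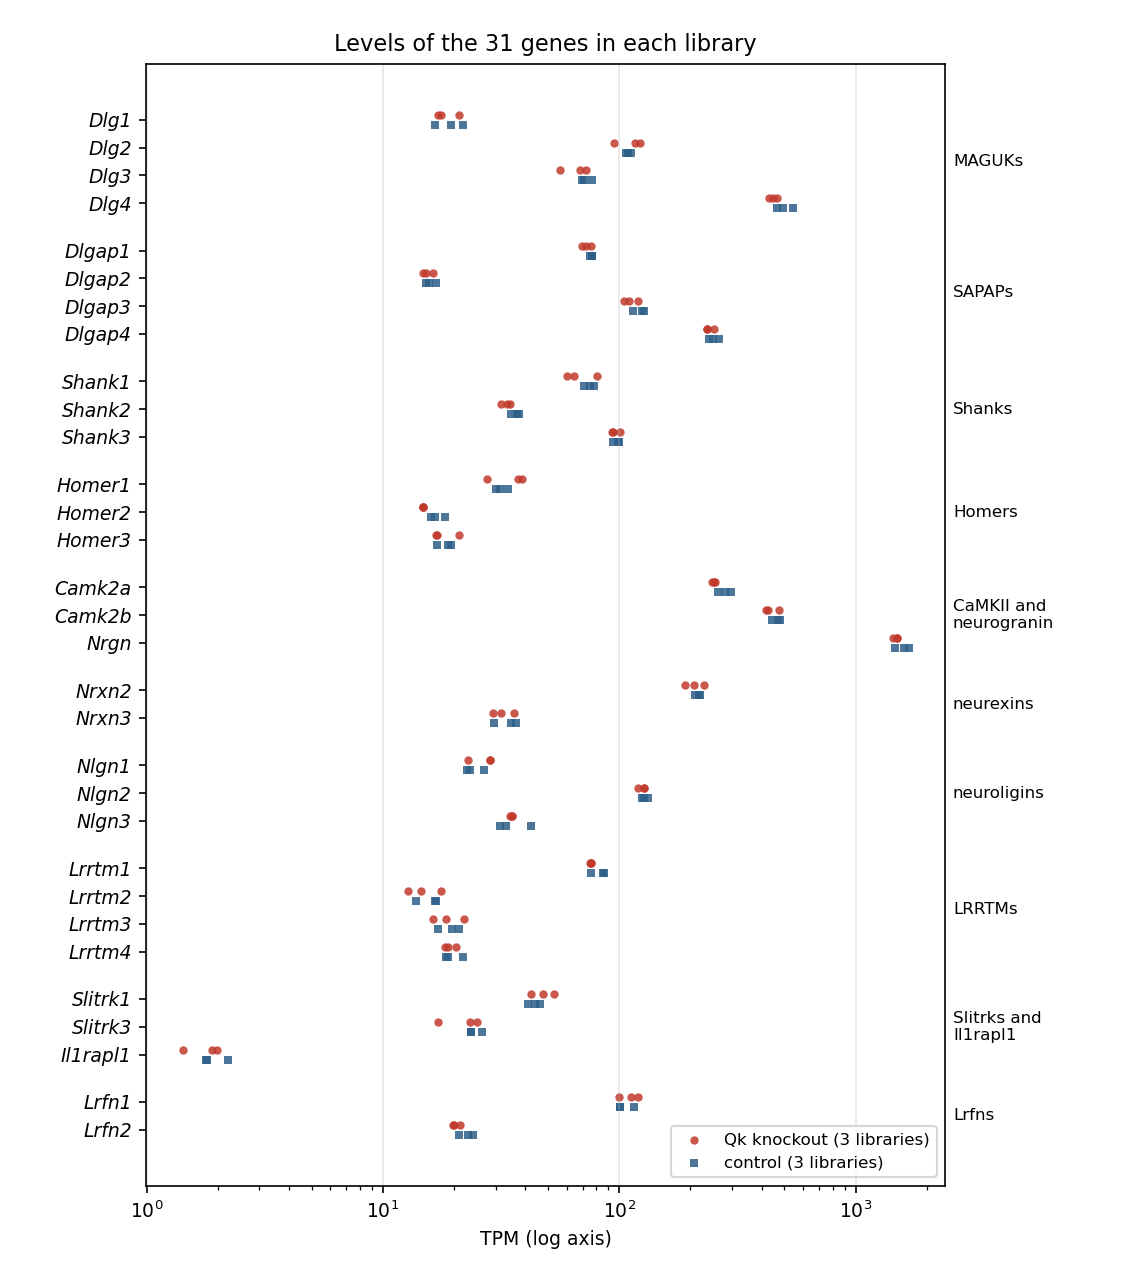
TPM (log axis) of each of the 31 genes in the 3 Qk knockout libraries (circles) and the 3 control libraries (squares), 1 point per library, grouped by protein family. Levels run from 1.42 TPM for Il1rapl1 to 1435 TPM and more for Nrgn, and the groups overlap for 27 of the 31 genes.

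Most of the differences, none past the threshold, were below 0. The log2 change was below 0 for 26 of the 31 genes (83.9%), against 57.0% of all tested genes, and the median was -0.06 for the 31 genes and -0.03 for all tested genes. Rescaling the libraries moved both medians, to -0.04 for the 31 genes and -0.001 for all genes with TMM factors, and to -0.02 and 0.01 when the libraries were set to an equal level of 16 pan-neuronal genes. The number below 0 was then 23 of 31 (74.2%, against 50.3% of all tested genes) and 21 of 31 (67.7%, against 46.5%). The difference between both medians was -0.03 in each case. Control replicate 3 was the highest of the control libraries for 22 of the 31 genes. Without that library 22 of 31 were below 0 (71%, against 53.6% of all tested genes), with medians of -0.04 and -0.01. In 4 genes (12.9%) the groups did not overlap, each with the knockout below the control, against 14.2% of all tested genes in either direction and 8.98% with the knockout below (5.20% with it above). These 4 were Dlg4, Shank2, Homer2 and Camk2a. Because the genes share libraries, the counts are a description of these 6 libraries.

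**Figure D2:**
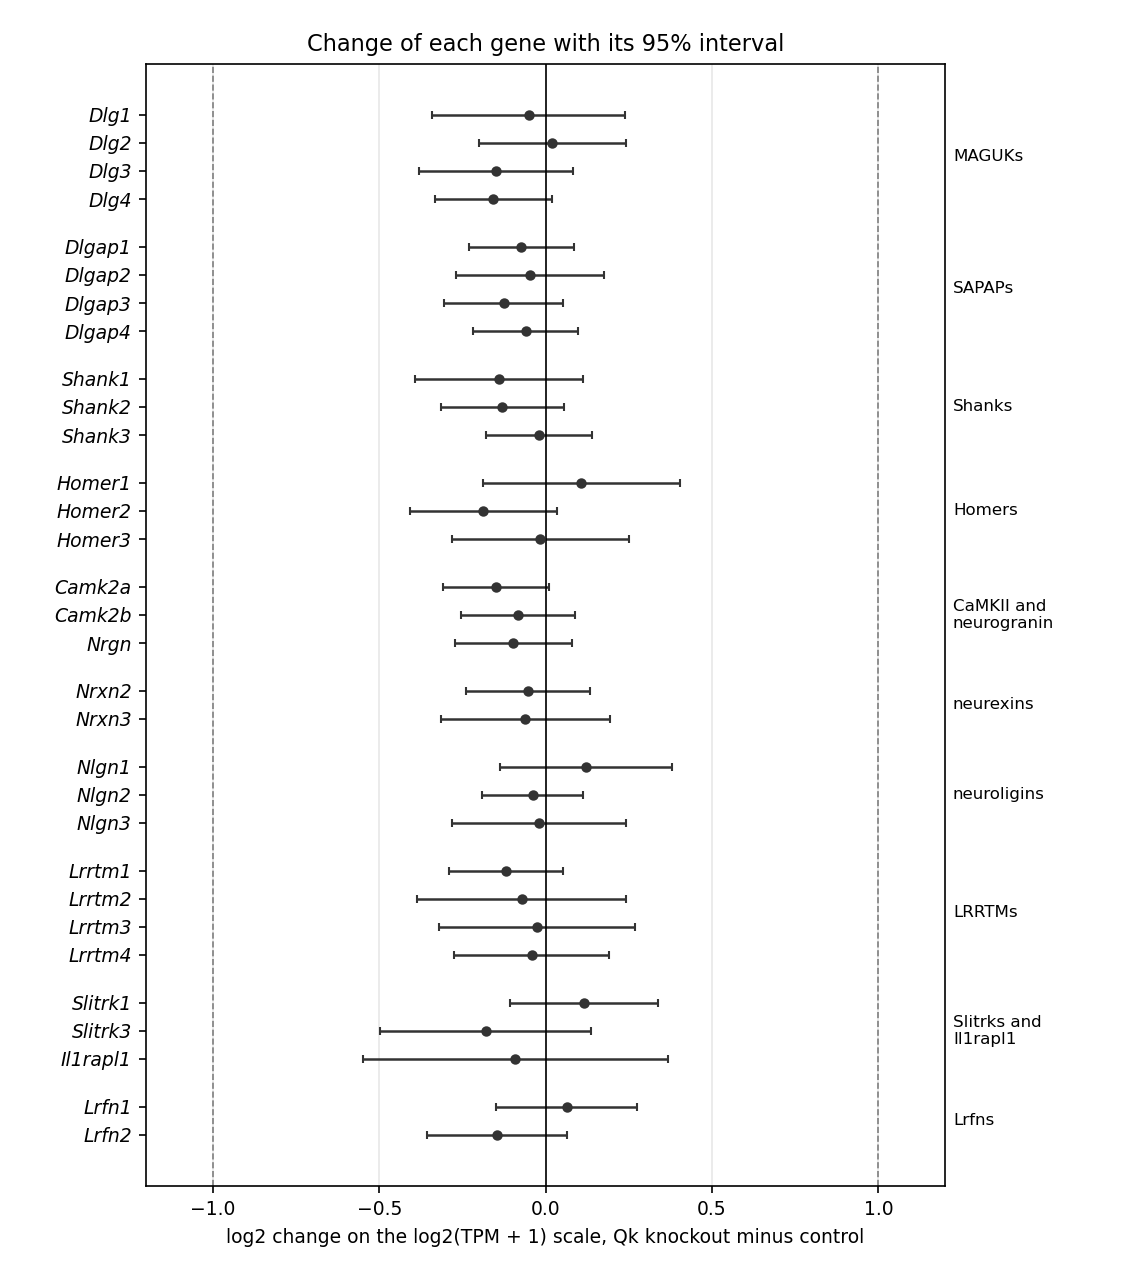
Log2 change of each of the 31 genes on the log2(TPM + 1) scale (Qk knockout minus control, points) with its 95% interval from limma (bars); the solid line marks 0 and the dashed lines mark -1 and 1. Every interval includes 0, and the outermost bounds are -0.55 (Il1rapl1) and 0.40 (Homer1).

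Quaking binds RNA at a core of the letters ACUAAC or ACUAAU, often beside a second, shorter element, UAAC or UAAU. The 3′ UTRs of the 31 genes were searched for these letters to show which of the transcripts hold such a pattern. For each gene, 1 protein-coding GENCODE transcript (GRCm38) was read on the transcript strand, and a match was the 6-letter core with a 4-letter element 1 to 20 bases before or after it. Of the 31 genes, 6 held such a match and 13 (41.94%, against 32.0% of 13837 tested genes with a transcript) held the core alone or with a partner. These shares depend on the length of the 3′ UTR. Per kilobase of 3′ UTR, the 31 genes held 0.334 cores, against 0.342 in all tested genes with a transcript. Core-and-partner matches per kilobase were 0.131 and 0.109. Matches are given below in DNA letters, 5′ to 3′, with the core and its partner in capitals; the sites of Lrrtm2 are not printed.
Nlgn1 a: ACTAACtgctgTAAC
Nlgn1 b: TAATaaaattgattACTAAC
Nlgn1 c: TAACtacatcACTAAT
Dlg2: TAACaattatACTAAT
Dlgap1: ACTAATttatttgTAAT
Slitrk1: ACTAATtctattcgaggattttaTAAT
Slitrk3: ACTAACagctttgtaggaagcactttTAAT

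All of these lie in the last exon of their transcript, which for Slitrk1 is its sole exon. The Nlgn1 sites a, b and c are on the minus strand at chr3:25432045-25432059, chr3:25430289-25430308 and chr3:25426615-25426630. The Dlg2 site is on the plus strand at chr7:92446067-92446082 and the Dlgap1 site on the plus strand at chr17:70821001-70821017. The Slitrk1 site is on the minus strand at chr14:108910027-108910053 and the Slitrk3 site on the minus strand at chr3:73047419-73047448. Such matches were not rare: 12.98% of the 13837 tested genes with a transcript held at least 1 in the 3′ UTR, against 19.35% of the 31 genes, whose 3′ UTRs had a median length of 1586 bases against 1030. Within the last 1000 bases of 3′ UTRs at least that long, 4 of 22 of these genes (18.18%) and 9.63% of 7061 tested genes held a match. The 6 genes with a match had log2 changes of -0.18 to 0.12 with a median of -0.03, and the 25 without had -0.19 to 0.11 with a median of -0.06. A match is a run of letters and was not tested as a binding site here.

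MAGUKs form the layer next to the receptors. Dlg4 encodes PSD-95, the main MAGUK of mature excitatory synapses, and it was the most abundant of the family. It was at 448.6, 464.5 and 431.6 TPM in the knockout libraries, against 465.9, 491.8 and 544.6 TPM in the control libraries. The highest knockout value lay just below the lowest control value, so the groups did not overlap. The means were 448 ± 16.4 and 501 ± 40.2 TPM (SD, n = 3 each), with a log2 change of -0.16 (95% interval -0.33 to 0.02, limma adjusted p = 0.62). In GRCm38, Dlg4 (Entrez 13385) spans 70016942 to 70047522 on chromosome 11 (plus strand).

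Dlg2, which encodes PSD-93 and also sits at the postsynaptic membrane, was at 117, 95.4 and 123 TPM in the knockout libraries, against 112, 107 and 109 TPM in the control libraries. Its lowest and highest values were both in knockout libraries. Dlg3, the gene of SAP102, the MAGUK of young synapses, was at 56.2 to 72.5 TPM in the knockout and 69.7 to 76.6 TPM in the control cortex. Dlg1, the gene of SAP97, which is also found at cell junctions outside the synapse, was the lowest of the family at 17.1 to 21 TPM in the knockout and 16.6 to 21.9 TPM in the control. In share of the family's summed TPM, Dlg4 took 69.6 ± 3.39% in the knockout and 71.3 ± 1.68% in the control (SD, n = 3 each), and the order Dlg4, Dlg2, Dlg3, Dlg1 was the same in all 6 libraries.

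The SAPAP genes, whose proteins bind the guanylate kinase domain of MAGUKs on one side and Shanks on the other, kept similar proportions to each other. Dlgap4 led the family at 235, 251 and 235 TPM in the knockout libraries and 239, 248 and 265 TPM in the control libraries. It took 54.6 ± 0.50% of the family in the knockout and 53.9 ± 1.43% in the control (SD, n = 3 each). Dlgap3 followed at 105 to 120 TPM in the knockout and 114 to 127 TPM in the control cortex, and Dlgap1 at 69.5 to 75.9 and 75.1 to 76.9 TPM. Dlgap2 was the lowest, at 14.8 to 16.3 TPM in the knockout and 15.3 to 16.8 TPM in the control. The groups overlapped for all 4 genes, with log2 changes of -0.13 to -0.05.

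**Figure D3:**
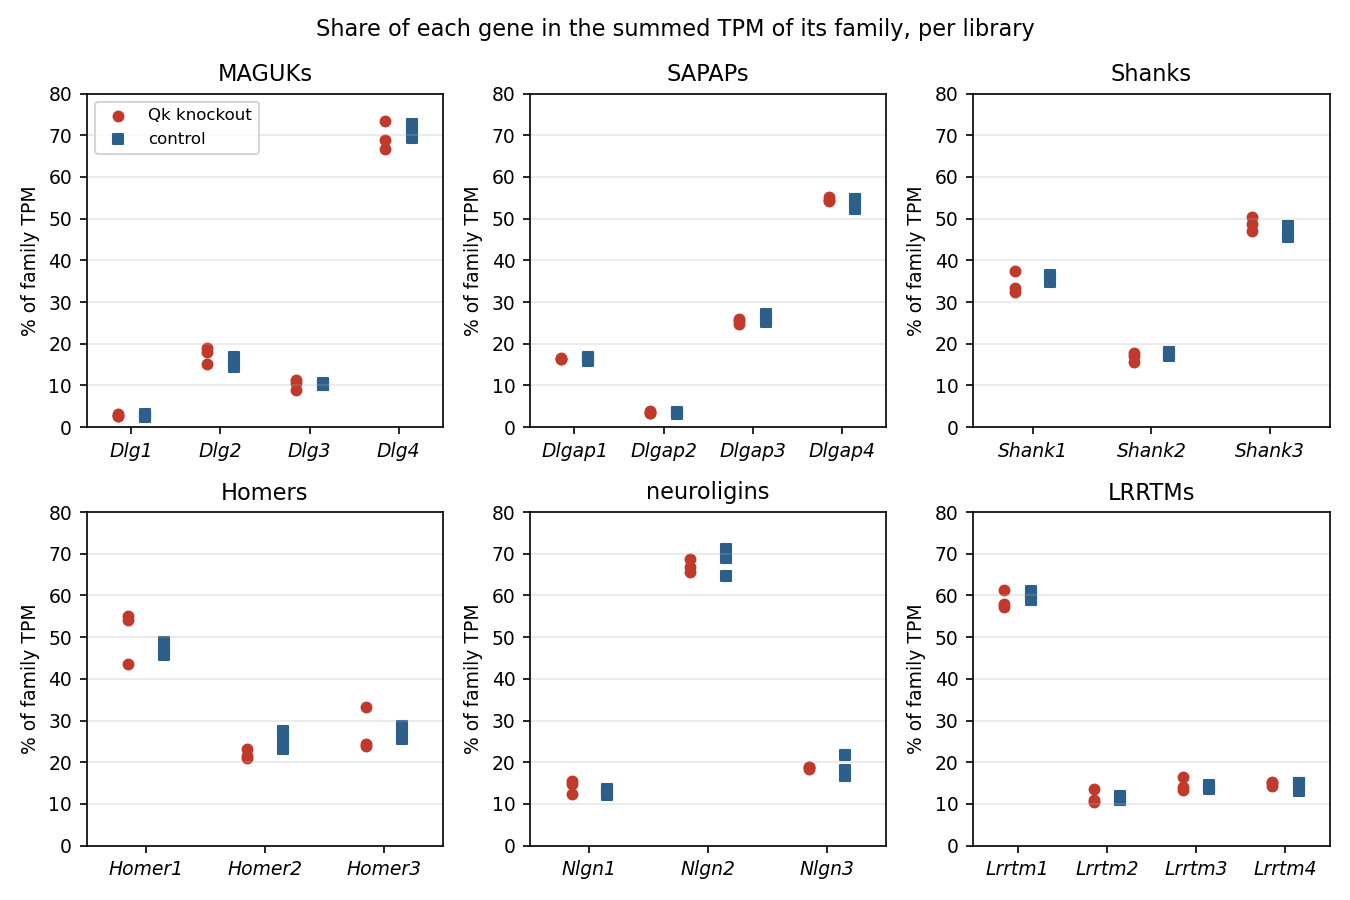
Share of each gene in the summed TPM of its family (percent) in the 3 Qk knockout libraries (circles, left) and the 3 control libraries (squares, right), for 6 families. The leading gene of each family is the same in both groups, with Dlg4 at 69.6% and 71.3% of the MAGUKs and Nlgn2 at 67.0% and 68.2% of the neuroligins, on average, in knockout and control.

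Shank proteins are large scaffolds that connect SAPAPs and Homers to the actin skeleton of the spine. Shank3 was at 93.5, 101 and 93.8 TPM in the knockout libraries, against 94.0, 99.0 and 99.4 TPM in the control libraries, with a log2 change of -0.02 (95% interval -0.18 to 0.14). Its values overlapped almost fully. Shank1 was at 60.2, 80.7 and 64.1 TPM in the knockout libraries, against 75.5, 71.1 and 78.1 TPM in the control libraries, so that knockout replicate 2 held the highest value of all 6 and the other knockout libraries the lowest values. Without that library its log2 change was -0.26 in place of -0.14, with an adjusted p of 0.38. Shank2 did not overlap between groups, at 31.6, 33.7 and 34.4 TPM in the knockout libraries and 37.1, 34.7 and 37.7 TPM in the control libraries. The log2 change was -0.13 (95% interval -0.32 to 0.05, limma adjusted p = 0.72). In GRCm38, Shank2 (Entrez 210274) spans 144001928 to 144424494 on chromosome 7 (plus strand).

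Homer proteins cross-link Shanks, metabotropic glutamate receptors and calcium release channels, and the Homer1 gene also makes a short, activity-induced form that is summed with the long form in a gene-level value. Homer1 was at 37.3, 27.61 and 38.74 TPM in the knockout libraries, against 31.22, 33.85 and 30.02 TPM in the control libraries. Knockout replicate 2 was the lowest of all 6 libraries and the other knockout libraries the highest. Homer2 had the largest log2 change of the 31 genes, -0.19 (95% interval -0.41 to 0.03, limma adjusted p = 0.65), from 14.72, 14.77 and 14.81 TPM in the knockout libraries and 18.24, 16.04 and 16.65 TPM in the control libraries. Its knockout values were nearly the same in each library and all lay below the control values. In GRCm38, Homer2 (Entrez 26557) spans 81600481 to 81707527 on chromosome 7 (minus strand). Homer3 was at 16.8 to 21.1 TPM in the knockout and 17.0 to 19.4 TPM in the control cortex. Of its exons, 874 bases overlap exons of Ddx49 on the other strand (71.0 TPM in the knockout, 70.9 TPM in the control). The sources used here do not give whether counting used strand. Exons of other annotated genes overlap those of 14 of the 31 genes. For 2 of these, Dlg2 and Nlgn3, an overlap is on the same strand (3823 bases for Nlgn3 with Gm21986).

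Calcium signalling at the spine runs through calmodulin, and the 3 genes of this group were, with Dlg4, the 4 most abundant of the 31. Nrgn encodes neurogranin, a calmodulin-binding protein of forebrain neurons, and had the highest level of the 31 genes, rank 76 of all tested genes. It was at 1492, 1435 and 1503 TPM in the knockout libraries, against 1596, 1470 and 1678 TPM in the control libraries, with a log2 change of -0.10 (95% interval -0.27 to 0.08). Only control replicate 2 fell within the range of the knockout libraries. Camk2a, the alpha subunit of the calcium/calmodulin-dependent kinase CaMKII, was at 246, 254 and 253 TPM in the knockout libraries and at 279, 261 and 296 TPM in the control libraries. All 3 knockout values lay below the control values, with means of 251 ± 4.42 and 279 ± 17.8 TPM (SD, n = 3 each) and a log2 change of -0.15 (95% interval -0.31 to 0.01, limma adjusted p = 0.61). Camk2b, the beta subunit, which binds actin, was the more abundant subunit in every library, at 418 to 475 TPM in the knockout and 444 to 481 TPM in the control cortex.

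Summed over the 31 genes, the libraries held 4254, 4308 and 4262 TPM in the knockout and 4494, 4364 and 4766 TPM in the control. The sums did not overlap, and Nrgn made up 34.7% of them on average. Without Nrgn the sums were 2762, 2872 and 2759 TPM in the knockout and 2898, 2894 and 3088 TPM in the control. With TMM factors the sums over the 31 genes stayed apart, at 4299, 4379 and 4267 TPM in the knockout and 4462, 4392 and 4639 TPM in the control. With median-of-ratios factors they overlapped by about 1 TPM. With the libraries set to an equal level of pan-neuronal genes they overlapped, at 4471, 4313 and 4230 TPM in the knockout and 4628, 4247 and 4555 TPM in the control. Without Nrgn the sums overlapped with each of these scalings. With TMM factors they were then 2791, 2920 and 2762 TPM in the knockout and 2877, 2913 and 3006 TPM in the control.

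Among the adhesion genes, neurexins stand on the presynaptic side. Nrxn2 was at 207, 229 and 189 TPM in the knockout libraries, against 218, 209 and 220 TPM in the control libraries. Nrxn3 was at 29.2 to 35.8 TPM in the knockout and 29.5 to 36.6 TPM in the control cortex. The control range lay inside the knockout range for Nrxn2, and for Nrxn3 the ranges were nearly the same. Both genes are large and are spliced into many forms, which a gene-level value sums.

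Neuroligins are postsynaptic partners of neurexins. Nlgn2, the neuroligin of inhibitory synapses, was the most abundant, at 127, 128 and 120 TPM in the knockout libraries and 133, 125 and 127 TPM in the control libraries. It had the narrowest interval of the 31 genes, with a log2 change of -0.04 (95% interval -0.19 to 0.11). Nlgn1, the neuroligin of excitatory synapses, was at 22.9, 28.3 and 28.4 TPM in the knockout libraries, against 22.8, 23.3 and 26.7 TPM in the control libraries. Its log2 change of 0.12 (95% interval -0.14 to 0.38, limma adjusted p = 0.83) was the highest of the 31 genes, and its groups overlapped. Nlgn3, which is found at excitatory and inhibitory synapses and also in astrocytes and oligodendrocyte precursors, was at 34.4 to 35.1 TPM in the knockout and 31.4 to 42.5 TPM in the control cortex.

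LRRTMs are leucine-rich repeat proteins of excitatory synapses that bind neurexins or heparan sulfate chains. Lrrtm1 was at 75.9, 75.1 and 76.1 TPM in the knockout libraries, against 76.0, 85.5 and 85.9 TPM in the control libraries, and control replicate 1 fell within the knockout range. It took 58.9 ± 2.16% of the family's TPM in the knockout and 60.1 ± 1.04% in the control (SD, n = 3 each). Lrrtm2, Lrrtm3 and Lrrtm4 were all between 12.71 and 21.99 TPM in the 6 libraries. Lrrtm2 was the lowest in every library, while the order of Lrrtm3 and Lrrtm4 changed between libraries.

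Slitrks and Il1rapl1 bind receptor tyrosine phosphatases on the presynaptic side. Slitrk1 was at 47.5, 42.5 and 52.9 TPM in the knockout libraries, against 41.1, 46.0 and 44.2 TPM in the control libraries. Slitrk3, which acts at inhibitory synapses, was at 24.9, 17.0 and 23.3 TPM in the knockout libraries and 23.7, 23.7 and 26.2 TPM in the control libraries. Knockout replicate 2 stood apart from the other 5 libraries, and without it the log2 change of Slitrk3 was -0.02 in place of -0.18. Il1rapl1, whose human homologue is linked to intellectual disability, was at 1.98, 1.42 and 1.89 TPM in the knockout libraries and 1.81, 1.79 and 2.21 TPM in the control libraries. Lrfn1 and Lrfn2 encode SALM proteins that bind PSD-95: Lrfn1 was at 120, 112 and 99.6 TPM in the knockout libraries and 101, 116 and 101 TPM in the control libraries, and Lrfn2 was at 19.8 to 21.1 TPM in the knockout and 20.9 to 24.0 TPM in the control cortex. The groups overlapped for each of these 5 genes.

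The spread within the knockout group went with base composition. Across the 31 genes, the deviation from the knockout mean correlated with the GC content of the transcript at r = 0.68 in replicate 2 and r = -0.71 in replicate 3, and at r = -0.27 in replicate 1 (Pearson, n = 31 genes of the same libraries; the 3 deviations of a gene sum to 0). Of 13 genes with a GC content below 50%, among them Homer1, Dlg2, Slitrk3 and Lrrtm2, 10 lay below the knockout mean in replicate 2 and 10 lay above it in replicate 3. Of the 18 genes of higher GC content, such as Shank1, Homer3 and Nrxn2, 14 lay above the mean in replicate 2 and 12 below it in replicate 3. In the control libraries r was between -0.24 and 0.21. The log2 change between the groups correlated with GC content at r = -0.32 across the 31 genes (Pearson). Across 9328 genes of at least 10 TPM that r was -0.05. The part of base composition in these changes was not tested. Without knockout replicate 2, 0 of 31 genes passed the threshold in limma and 2 had an unadjusted p under 0.05, against 0.186% and 9.27% of 15016 tested genes. The median log2 change was then -0.05 for the 31 genes and -0.02 for all genes. Without knockout replicate 3 the medians were -0.08 and -0.03, and 0 of 31 genes passed in limma, against 0.227% of 15008 tested genes.

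**Figure D4:**
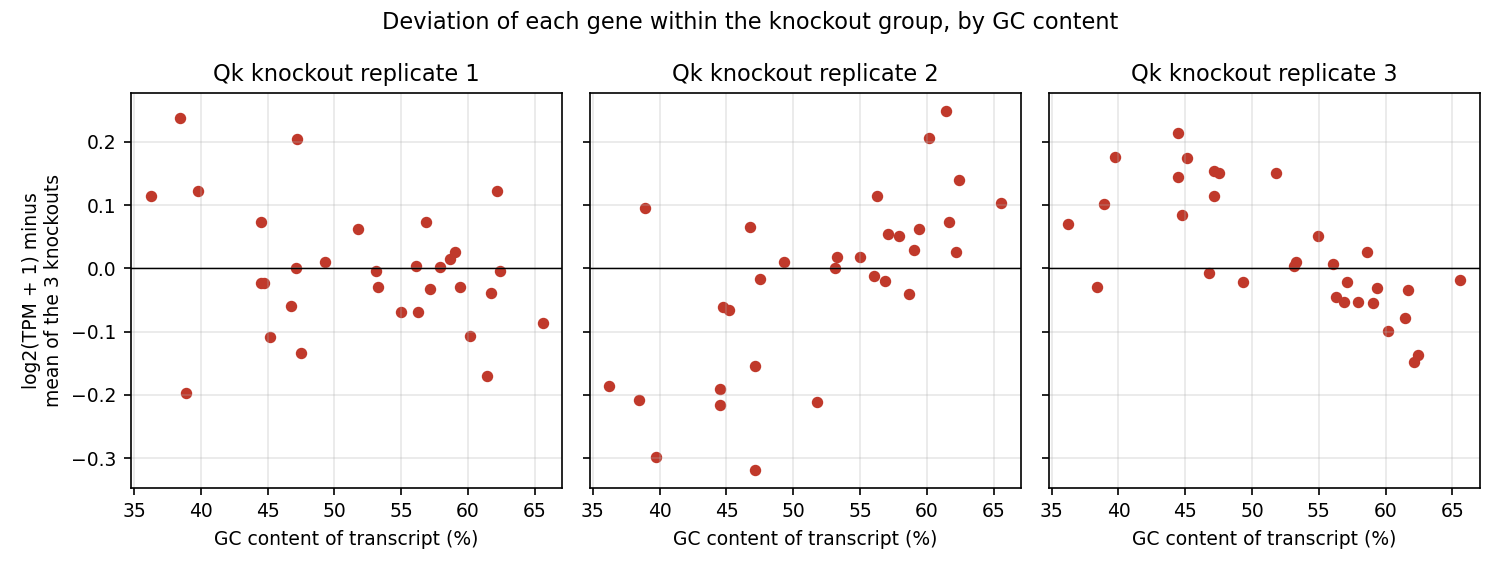
Deviation of each of the 31 genes from its mean over the 3 knockout libraries (log2(TPM + 1) units, y axis) against the GC content of its transcript (percent, x axis), 1 panel per knockout library. The points climb with GC content in replicate 2 (r = 0.68) and descend in replicate 3 (r = -0.71).

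Other genes of the same synaptic compartments held no call either. None of 32 further genes of the postsynaptic density passed the threshold over all genes (median log2 change -0.03, 7 above and 25 below 0). Agap2, a GTPase-activating protein, was at 447, 475 and 416 TPM in the knockout libraries and 471, 416 and 468 TPM in the control libraries, and Lin7b, a PDZ scaffold, was at 145, 106 and 114 TPM and at 169, 144 and 142 TPM. Of 56 further synaptic adhesion genes none passed (median -0.03, 22 above and 34 below 0). Clstn1, the calsyntenin of highest level, was at 519, 570 and 533 TPM in the knockout libraries and 604, 586 and 610 TPM in the control libraries, without overlap (log2 change -0.15, limma adjusted p = 0.58), and Cadm4, an adhesion protein of the immunoglobulin superfamily, was at 408, 522 and 438 TPM and at 528, 500 and 503 TPM. Groups did not overlap for 3 of the 32 postsynaptic density genes (all with the knockout below) and 3 of the 56 adhesion genes (2 below and 1 above). Of 5 genes of the inhibitory postsynapse none passed, and in 2, Dag1 and Lhfpl4, the knockout values lay below the control values. Over all tested genes, 14.2% did not overlap, 8.98% with the knockout below and 5.20% with it above. Dag1, the dystroglycan gene, was at 70.3, 72.6 and 71.8 TPM in the knockout libraries and 80.49, 79.81 and 84 TPM in the control libraries (limma adjusted p = 0.47). Lhfpl4, a partner of Nlgn2 and GABA-A receptors, was at 54.8, 57.3 and 53.3 TPM in the knockout libraries and 61.3, 63.2 and 68.4 TPM in the control libraries (limma adjusted p = 0.45).

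Markers of the neurons that carry these synapses did not pass the test either. None of 16 pan-neuronal genes passed, and their summed level was 11008 to 11734 TPM in the knockout and 11103 to 11802 TPM in the control libraries. Stmn2, a stathmin of growing neurons, averaged 2860 TPM in the knockout and 2746 TPM in the control cortex, and Tubb3, a neuronal tubulin, averaged 2400 and 2410 TPM. None of 8 genes of cortical projection neurons passed (summed level 943 to 984 TPM in the knockout and 882 to 956 TPM in the control), with Slc17a7, the vesicular glutamate transporter, at 506 to 530 TPM in the knockout and 484 to 508 TPM in the control, and Neurod6 at 140 to 148 and 121 to 129 TPM. The 8 interneuron genes held no call, and their summed level was 2135 to 2206 TPM in the knockout and 1706 to 1938 TPM in the control, most of it from Sst (1270 to 1385 and 926 to 1206 TPM) and Npy (408 to 548 and 373 to 400 TPM). Late postnatal neuronal genes (6 genes) and early neuronal genes (6 genes, led by Nnat and Dpysl3) held no call. At an unadjusted p under 0.05, which 8.72% of all tested genes reached, limma gave 3 of the 32 postsynaptic density genes (all lower in the knockout), 0 of the 56 adhesion genes, 2 of the 5 inhibitory genes (Dag1 and Lhfpl4), 2 of the 16 pan-neuronal genes (lower), 2 of the 8 projection neuron genes (higher), 3 of the 8 interneuron genes (2 higher and 1 lower) and 0 of the 6 late and 6 early neuronal genes.

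Markers of astrocytes and of the oligodendrocyte lineage held genes past the threshold. These lists were chosen with earlier results of these data known and are a description only. Of 14 astrocyte markers, 5 fell in the knockout (Slc1a3, Mlc1, S100b, Fgfr3 and Gja1), against 0.287% of all tested genes. At an unadjusted p under 0.05, 9 of the 14 were lower and 1, Aldh1l1, was higher (77.0 TPM in the knockout and 55.5 TPM in the control, adjusted p = 0.14 in limma). The summed level of the 14 was 1001 to 1084 TPM in the knockout and 1399 to 1519 TPM in the control. Of 13 tested markers of the oligodendrocyte lineage, 4 fell (Mbp, Cnp, Bcas1 and Gpr17) and 1 rose (Olig2), with a summed level of 499 to 531 TPM in the knockout and 563 to 594 TPM in the control. At an unadjusted p under 0.05, 7 of the 13 were lower and 2, Olig2 and Olig1, were higher. Olig1 averaged 185 TPM in the knockout and 138 TPM in the control (adjusted p = 0.14 in limma). Microglial markers (10 genes, led by C1qb and C1qc) held no call, at a summed 376 to 410 TPM in the knockout and 339 to 361 TPM in the control, nor did 7 endothelial markers (390 to 465 and 406 to 544 TPM, led by Cldn5 and Slc2a1) and 6 striatal markers (233 to 243 and 213 to 272 TPM, with Ppp1r1b the highest). At an unadjusted p under 0.05 there were 4 microglial markers (3 higher and 1 lower), 0 endothelial and 0 striatal markers. Of all tested genes, 8.72% reached that level in limma (3.42% higher and 5.30% lower). Of the 67 markers found in the files none was at 0 TPM in any library, and Mobp, a myelin gene, was the 1 below the filter, at 0.52 to 1.2 TPM in the knockout and 0.36 to 1.12 TPM in the control. Their part in the levels of the 31 synaptic genes was not tested.

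**Figure D5:**
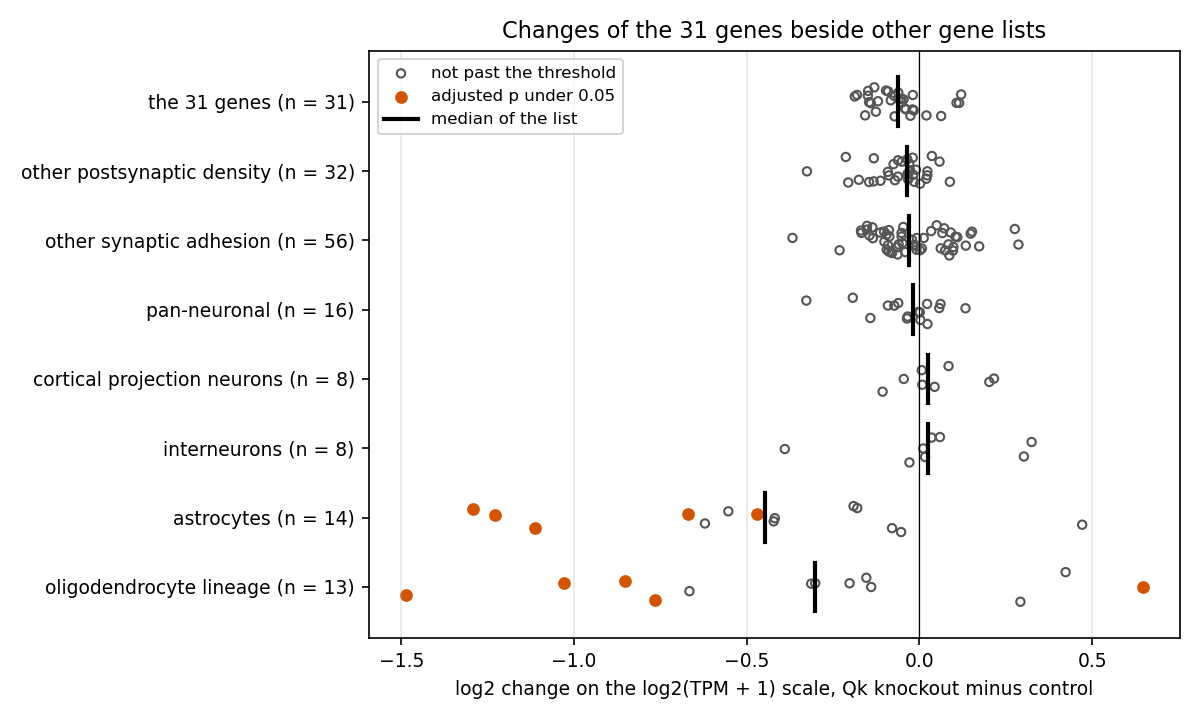
Log2 change (Qk knockout minus control, log2(TPM + 1) scale) of every tested gene of 8 lists, 1 point per gene; filled points passed an adjusted p of 0.05 and black lines mark list medians. The 31 synaptic genes lie between -0.19 and 0.12 with no filled point, while the astrocyte and oligodendrocyte lists hold 5 each.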

How the data were processed

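Polyadenylated RNA was sequenced on an Ion Proton, per the labels' protocols, from 3 Qk-/- and 3 wild type cortices, grouped by sample title. The deposited values are TPM per gene, made by the authors; STAR 2.4.1d and RSEM 1.3.0 and the builds mm10 and GRCm38.p4 are named, per the submitters' processing notes, without their order. TPM keeps no read depth, so counting error is unknown. Each library is labelled as a brain of its own, and p-values rest on the spread among these. No 2 libraries were duplicates: 50 to 75 of 14994 values were identical in any 2, and across genes their log2(TPM + 1) values correlated at Pearson r = 0.977 to 0.982.

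Genes averaging 1 TPM or more were fitted as log2(TPM + 1) on group with limma 3.58.1 in R 4.3.3 (eBayes with trend, two-sided, Benjamini-Hochberg over all genes, threshold 0.05). All 31 genes passed this filter. The code of the fit was tested on simulated data with independent noise for each gene and library. That noise lacked the link to GC content described above, so the simulation gives no measure of power for small changes here. The genes and lists were chosen with earlier results of these data known, including the glial lists. Values of each library are given where groups did not overlap and for the highest gene of each family; of other lists, genes past the threshold or else the top 2 by level were named by rule (a few are not reported here), and others (the values per library of Shank1, Nlgn1, Dlg2 and Slitrk3, for example) after their values were seen. The 3′ UTRs and GC content came from 1 GENCODE M21 transcript per gene (APPRIS principal where given, then the longest 3′ UTR), matched by Entrez number or symbol for 13837 of 14994 genes. Alternatives changed the pseudocount, filter, scaling (TMM factors, median-of-ratios factors, a list of pan-neuronal genes), trend, replicate block, GC content (with and without correction, in the 13837 matched genes) and libraries.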

Additional observations from a re-analysis of the deposited data

How the results depend on the processing

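In none of 18 other settings did any of the 31 genes pass the threshold (smallest adjusted p 0.38, Shank1 without knockout replicate 2), and the largest log2 change of any of them was 0.28 in size. The median log2 change of the 31 genes stayed below 0, from -0.09 without control replicate 1 to -0.02 with pan-neuronal scaling. The sign was the same in every setting for 19 genes. The other 12, none of them called, changed sign in some. A rescaling moves all genes by nearly the same amount, so values near 0 cross it by construction, and for the other settings the cause was not tested. With TMM scaling the log2 changes of Shank3, Homer3 and Nlgn3 were 0.0064, 0.0093 and 0.0068. With median-of-ratios scaling those of Shank3, Homer3, Nlgn3 and Lrrtm3 were 0.0095, 0.012, 0.0099 and 0.0023. With pan-neuronal scaling those of Shank3, Homer3, Nlgn2, Nlgn3 and Lrrtm3 were 0.021, 0.023, 0.0021, 0.021 and 0.014. With correction for GC content, chosen after seeing the data, those of Shank3, Homer3 and Nlgn3 were 0.0100, 0.017 and 0.0022, with and without the replicate block. When 1 library at a time was left out, the log2 change ran from -0.15 to 0.040 for Dlg1, -0.052 to 0.13 for Dlg2, -0.12 to 0.037 for Homer3, -0.12 to 0.0155 for Nrxn2, -0.15 to 0.0058 for Nrxn3, -0.10 to 0.11 for Nlgn3, -0.19 to 0.032 for Lrrtm2, -0.13 to 0.069 for Lrrtm3, -0.086 to 0.030 for Lrrtm4 and -0.15 to 0.0020 for Il1rapl1.

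The count over all genes, 58, was 37 with no filter, 28 without the trend, 101 with GC correction (61 with the replicate block as well), 97 for the same 13837 genes with a GC content without that correction and between 27 and 59 with 1 library fewer (28 without knockout replicate 2, 27 without control replicate 2). With the replicate number as a block it was 38, and 0 of the 31 genes passed. Deviations of libraries of the same number correlated at 0.03, 0.03 and 0.01, and those of unlike number at -0.04 to 0.01. With 3 libraries per group these values cannot show whether a number marks a shared litter or batch, and the labels do not say. Read depth is unknown, so no limit from counting could be set.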
